A study of Mus musculus with 8 samples.

Results

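Bcl6 encodes a transcriptional repressor, and its RNA was followed in mouse embryonic fibroblasts that carried either of 2 STAT5 mutants, with and without growth hormone. Of the 45101 probe sets in the deposited table, 2 had Bcl6 as their single gene symbol in the platform annotation, and both were followed over all 8 arrays; such probe sets covered 18193 genes in all. The fibroblasts were of the C57BL/6 strain and Stat5-null, and a vector with a STAT5 mutant had been put into them by retroviral infection. The first mutant, EA, is labelled as changed from EE to AA in a binding domain, and the second, YF, as Y694F, which alters the phosphorylation site. Cells of both mutants were taken unstimulated or after 120 minutes with growth hormone, giving 4 groups (EA without hormone, EA with hormone, YF without hormone, YF with hormone) of 2 arrays. Every group thus shared the loss of Stat5 and the retroviral transfer, and cells with unmutated STAT5 or no insert are not analysed here. The labels do not say whether the infected cells were clones or pools, so a difference between EA and YF cannot be told apart from a difference between the infected populations. Duplicates within a group are described as biological, with no word on whether cultures or infections were separate.

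BCL6 is a member of the BTB zinc finger family. Its BTB domain recruits corepressors such as BCOR and histone deacetylases, and its zinc fingers bind DNA elements that resemble the sites of STAT factors. It is best known from germinal centre B cells, where it holds back differentiation and cell cycle arrest genes. In liver and fat, growth hormone is known to lower Bcl6 RNA through STAT5, and BCL6 and STAT5 are known to compete for sites near feedback genes such as Socs2 and Cish.

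Promoter sequence is shown first, because STAT-type sites at Bcl6 are the known link between STAT5 and this gene. RefSeq (GRCm38.p6) gives 2 start sites for Bcl6 in the promoter table, and the 250 bases before each are printed 5′ to 3′ on the minus strand of chromosome 16. Capitals mark each match to TTCNNNGAA, the palindromic STAT dimer motif, which reads the same on both strands. The window of the upstream start is chr16:23988853-23989102 and that of the downstream start is chr16:23981284-23981533.
Bcl6 upstream start: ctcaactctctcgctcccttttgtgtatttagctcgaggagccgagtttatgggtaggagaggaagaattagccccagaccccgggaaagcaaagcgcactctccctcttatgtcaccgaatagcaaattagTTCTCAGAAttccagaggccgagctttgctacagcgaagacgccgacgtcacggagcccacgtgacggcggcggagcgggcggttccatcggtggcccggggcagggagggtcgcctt
Bcl6 downstream start: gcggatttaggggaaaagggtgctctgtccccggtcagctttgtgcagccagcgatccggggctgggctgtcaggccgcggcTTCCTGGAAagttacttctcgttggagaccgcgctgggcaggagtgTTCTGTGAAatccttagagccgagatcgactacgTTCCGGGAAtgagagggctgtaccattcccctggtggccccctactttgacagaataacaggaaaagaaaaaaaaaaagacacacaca

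The downstream window held 3 matches, at positions -168 to -160, -122 to -114 and -88 to -80 counted back from the start site. The upstream window held 1, at positions -118 to -110. Of the 32851 windows of this length in the table, 2306 (7.02%) held at least 1 match and 9 (0.0274%) held 3 or more. The match TTCCTGGAA also fits TTCCTNGAA, a subset of the first motif that was searched on both strands as a loose form of BCL6 sites. That subset leaves 1 base free, and whether BCL6 binds the form with G there is not known here. It was found in 430 windows (1.31%). The longer STAT6-type motif, with 4 bases between TTC and GAA, was found in 1923 windows (5.85%) and in neither Bcl6 window. A match is a description of these letters and not a measured binding site, and which of the start sites was in use in these cells was not measured.

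Bcl6 RNA was abundant in 3 groups and lower in the EA cells that had received hormone. On the brighter probe set, 1421818_at, the log2 expression values in EA without hormone were 12.45 and 12.38. In EA with hormone they were 10.56 and 10.63. In YF without hormone they were 12.28 and 12.15, and in YF with hormone 12.29 and 12.19. The arrays of EA with hormone lay below the other 6 with no overlap, while the YF arrays with and without hormone overlapped.

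The group means were 12.41 (SD 0.05, n = 2) in EA without hormone, 10.59 (SD 0.05, n = 2) in EA with hormone, 12.22 (SD 0.09, n = 2) in YF without hormone and 12.24 (SD 0.07, n = 2) in YF with hormone. Hormone gave a log2 difference of -1.82 (SE 0.07) in EA cells, a 3.53-fold lower level, and of 0.02 (SE 0.07) in YF cells. The EA response minus the YF response was -1.85 (SE 0.09). Bcl6 was chosen with this pattern known, so these values are a description, no p is given for Bcl6 in any comparison, and they support nothing beyond themselves. In these bulk samples, fewer cells with the RNA and less RNA per cell cannot be told apart.

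**Figure D1:**
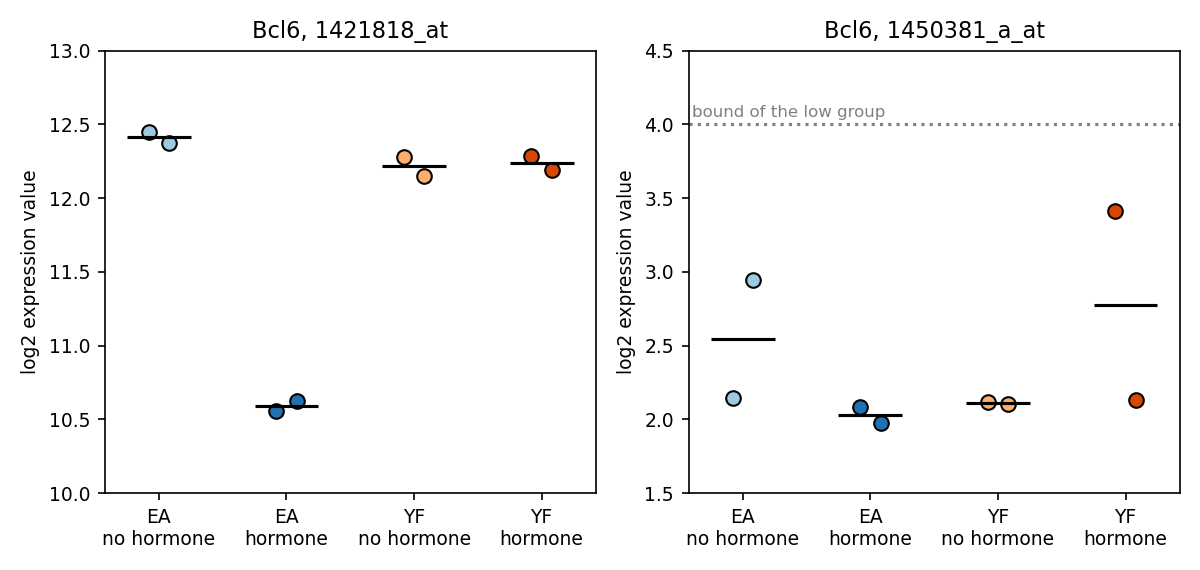
Log2 expression values of the 2 Bcl6 probe sets (vertical axes, which do not start at 0) in the 4 groups, with a point for each array and a line at each group mean. On 1421818_at (left) the EA arrays with hormone sit at 10.56 and 10.63 and the other 6 between 12.15 and 12.45; on 1450381_a_at (right) all 8 arrays lie below the dotted bound of 4.

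Ordered by level, EA without hormone came first, then YF with hormone, YF without hormone and EA with hormone. The first step of that order was 0.17 on the log2 scale (SE 0.07), with no overlap of the arrays, against gaps between replicates of 0.0734 and 0.0946. The second step was 0.02, less than the replicate gap of either YF group, so these neighbours did not differ beyond their spread. The third step, down to EA with hormone, was 1.62.

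Without hormone the EA and YF means differed by 0.20 (SE 0.07), and with hormone by -1.65 (SE 0.07), so the sign of the difference between the mutants was not the same in both conditions. Among probe sets with a mean of at least 4, 10 had a larger fall with hormone in EA cells than Bcl6, and 128 were lower there by at least 1. Of those 128, 72 had a hormone difference within 0.5 of 0 in YF cells. In the comparison of EA with YF after hormone, 748 of the same probe sets were lower by more than Bcl6.

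The second probe set, 1450381_a_at, gave no usable measure of Bcl6. Both probe sets are annotated to the same GenBank record, but the second lay in the low group of values, defined here as means below 4, which held 24773 of the 45037 tested probe sets (55%). Its values were 2.14 and 2.94 in EA without hormone, 2.08 and 1.98 in EA with hormone, 2.12 and 2.10 in YF without hormone and 3.41 and 2.13 in YF with hormone. The single highest value came from replicate 1 of YF with hormone. The hormone difference was -0.51 (SE 0.47) in EA cells and 0.66 (SE 0.47) in YF cells, and the scale of a value in the low group is unknown.

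Array quality was alike over the series, with 1 array apart. Duplicate arrays had correlations of 0.996 to 0.998 across the tested probe sets, which are not independent. On the second principal component, replicate 1 of YF with hormone had a score of -55.8, against -14.3 to 32.6 for the other 7. Without that array, the Bcl6 difference was -0.02 in YF cells and -1.82 in EA cells. Fibroblast markers were present, with Col1a1, Col1a2, Col3a1, Vim, Fn1 and S100a4 at 14.38 to 14.98 in every group, although Lum lay in the low group and the Dcn and Thy1 values were smaller in EA cells (3.74 against 7.41 and 7.64 against 12.68 without hormone). The 4 measured B cell, 6 T cell and 4 hepatocyte markers all had means below 4. The defining RNAs of lymphocytes and liver, the best known settings of Bcl6, thus stayed in the low group.

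The next comparison concerns genes described as repressed by BCL6, as they behaved when hormone was added to EA cells. Of 25 measured members (28 listed), 4 passed higher and 0 lower, against 61 of all 45037 probe sets (0.135%), at a limma adjusted p under 0.05. Ccl2 and Ccl7, chemokines that attract monocytes, Socs2, a feedback inhibitor of growth hormone signalling, and the interferon-induced chemokine Cxcl10 made up the 4. Before adjustment, 5 were higher and 1 lower at p under 0.05, against 2529 of the 45037 probe sets in either direction. The list's median difference was 0.02, against 0.03 over all probe sets. Earlier results of these data were known when the list was written, and it held genes already seen to rise, so the count is not independent evidence of a direction.

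Socs2 and Cish are the members most closely tied to growth hormone and STAT5. On its brightest probe set, Socs2 had values of 6.29 and 6.64 in EA without hormone and 11.34 and 11.27 with it, a rise of 4.84 (SE 0.34, adjusted p = 0.029). In YF cells the values were 7.10 and 6.25 without and 6.65 and 6.08 with hormone, a difference of -0.30 (SE 0.34, adjusted p = 0.59). The arrays of EA with hormone were the only high ones, the reverse of the arrangement of the Bcl6 values. The difference of the responses was 5.15 (SE 0.47, adjusted p = 0.10) on this probe set and 5.11 (SE 0.23, adjusted p = 0.025) on another that started in the low group. With replicate number added to the fit as a block, 0 probe sets passed for this difference.

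Cish, a second feedback inhibitor, had values of 4.69 and 4.67 in EA without hormone and 6.90 and 6.76 with it. Its difference of 2.15 (SE 0.21, adjusted p = 0.064) did not pass. It passed in 4 of 15 alternative fits, over which the difference was 2.08 to 2.22. In YF cells all 4 values lay between 3.35 and 4.02, with a hormone difference of 0.04 (SE 0.21, adjusted p = 0.90).

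The chemokines had high values with hormone in both mutants, unlike Bcl6. Ccl7 rose from 5.53 and 6.04 to 11.13 and 11.12 in EA cells, by 5.34 (SE 0.18, adjusted p = 0.0039), and from 6.69 and 6.46 to 10.30 and 10.41 in YF cells, by 3.78 (SE 0.18, adjusted p = 0.0095). Cxcl10 rose from the low group by 4.02 (SE 0.27, adjusted p = 0.028) in EA and 4.12 (SE 0.27, adjusted p = 0.022) in YF cells. Ccl2 rose by 6.77 (SE 0.47, adjusted p = 0.029) in EA cells and had a difference of 4.82 in YF cells (SE 0.47, adjusted p = 0.051). When the EA response was tested against the YF response in limma, none of these 3 passed. There 6 of the 25 members were higher and 0 lower before adjustment (p under 0.05), against 4385 of the 45037 probe sets in either direction. After adjustment 0 of the 25 passed on their brightest probe sets, against 9 of all probe sets (0.02%). That count was 1 without either YF array with hormone.

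Other members of the list did not pass in either mutant on addition of hormone. Prdm1, the plasma cell regulator that is a classical BCL6 target, had values of 2.26 to 2.42 over the 8 arrays, in the low group. The abundant members Ccnd2, a G1 cyclin, Cdkn1a, an inhibitor of cyclin-dependent kinases, Notch2, a receptor, and Cd44, an adhesion receptor, had hormone differences of -0.10, -0.04, 0.02 and 0.13 in EA cells. Their differences in YF cells were -0.02, 0.05, -0.12 and -0.38. In YF cells 2 of the 25 passed higher and 0 lower, against 81 of all probe sets (0.18%), with a list median of -0.04 against -0.04 over all probe sets.

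These counts depended on single arrays, and so did those over all probe sets. For hormone in EA cells, all calls numbered 61 with every array, 9 without either YF array, 21 without either YF array with hormone, and 41 to 80 without 1 of the 4 EA arrays. In YF cells the 81 calls became 8 when either unstimulated EA array was left out, 9 when either hormone-treated one was, 40 and 15 without YF replicates 1 and 2, and 675 without replicate 2 of YF with hormone. For the difference of the responses, the 9 calls became 201 without replicate 2 of YF with hormone, 48 and 15 without EA with hormone replicates 1 and 2, 3 without YF replicate 1, and 0 to 1 without an unstimulated EA array or YF replicate 2. The background shares move with these counts. Among the repressed genes, the count in EA cells was 1 without either EA array or either EA array with hormone, where Ccl7 alone passed; it was 2 without either YF array, and 3 without either YF array with hormone. In YF cells it was 0 without either EA array with hormone, and 1 without either EA array or without YF replicate 2.

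**Figure D2:**
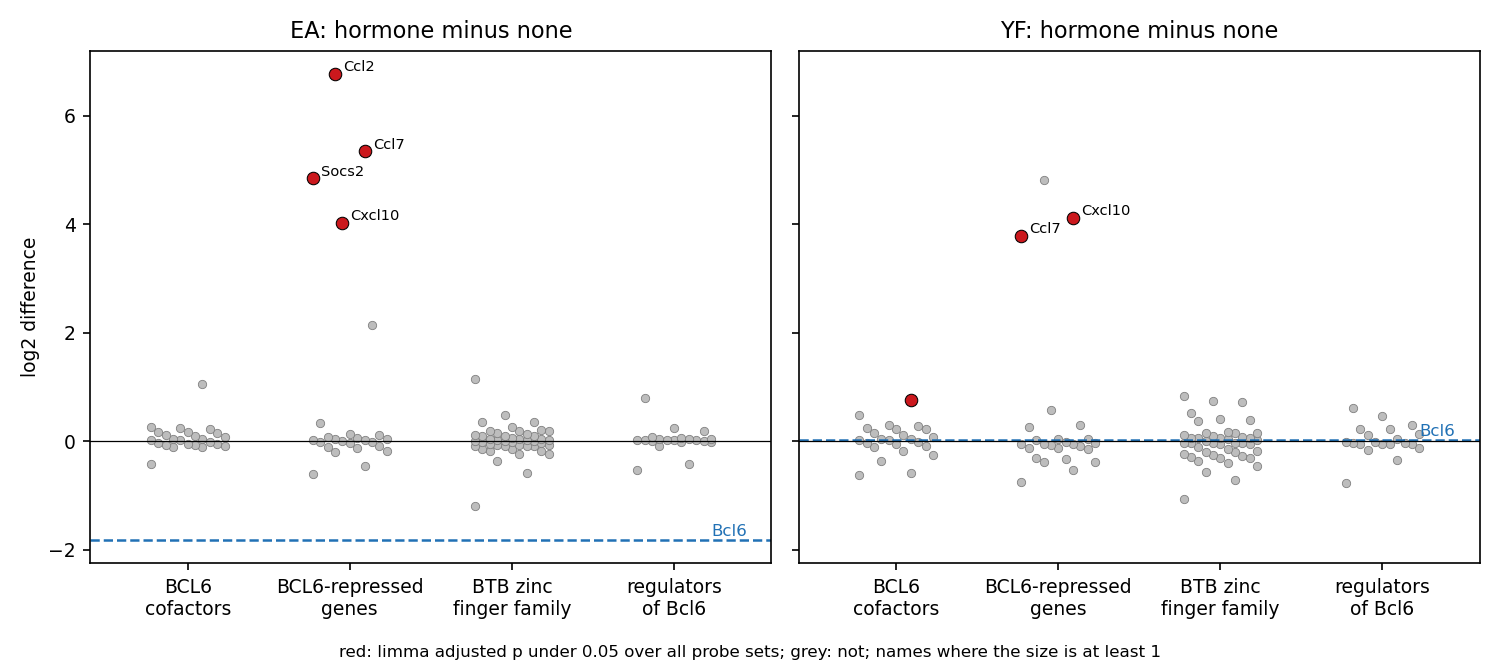
Log2 difference on addition of hormone (vertical axis) for each measured member of 4 gene lists, in EA cells (left) and YF cells (right); each point is a gene on its brightest probe set, red where limma's adjusted p was under 0.05, and the dashed line is Bcl6. In EA cells Ccl2, Ccl7, Socs2 and Cxcl10 lie between 4.02 and 6.77 and Bcl6 at -1.82; in YF cells Bcl6 lies at 0.02.

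BCL6 works through corepressors, and their RNAs were examined next. All 24 measured members (27 listed) had a mean of at least 4. In EA cells 0 passed with hormone in limma, near the 0.135% of all probe sets, so the count says nothing particular of the cofactors. Before adjustment (p under 0.05) 1 was higher and 0 lower, against 2529 of the 45037 probe sets in either direction, and the median difference was 0.03, as over all probe sets. The most abundant members were Ctbp1, a corepressor, Tbl1x, a subunit of corepressor complexes, Kdm1a, a histone demethylase, and Hdac1, a histone deacetylase. Their differences lay between -0.04 and 0.04 in EA cells. Over the whole list the differences ran from -0.41 (Pcgf1) to 1.06 (Hdac9, another deacetylase), and neither passed. Bcor, whose protein binds the BTB domain of BCL6, had a difference of 0.22 (SE 0.18, adjusted p = 0.87).

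In YF cells Hdac4, a class IIa deacetylase, rose with hormone. Its values were 8.07 and 8.12 without and 8.91 and 8.81 with hormone, a rise of 0.76 (SE 0.07, adjusted p = 0.043). In EA cells they were 8.54 and 8.70 without and 8.89 and 8.87 with hormone (0.26, SE 0.07, adjusted p = 0.51). The call in YF cells was lost without each array in turn, at an adjusted p of 0.0758 to 0.165, except without replicate 2 of YF with hormone. Its fainter probe sets lay in the low group. The responses of EA and YF cells differed for 0 members in limma. Before adjustment (p under 0.05) 1 was higher and 2 lower, against 4385 of the 45037 probe sets in either direction.

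Relatives of Bcl6 in the BTB zinc finger family were examined on addition of hormone. Of 45 measured members (47 listed), 36 had a mean of at least 4, and 0 passed with hormone in limma in EA or YF cells or in the difference of the responses. Over all probe sets 0.135%, 0.18% and 0.02% passed in these comparisons, so counts of 0 are near the background and are no result about the family. Before adjustment, at p under 0.05, there were 2 higher and 2 lower in EA, 1 higher and 5 lower in YF, and 4 higher and 4 lower in the difference. Of all 45037 probe sets, 2529, 5114 and 4385 were under 0.05 in these comparisons, in either direction. Bcl6b, the closest paralog, lay between 2.07 and 2.15 on all 8 arrays, in the low group. The lowest hormone difference in EA cells was that of Zbtb16, a repressor also known as PLZF, at -1.19 (SE 0.55, adjusted p = 0.87), where the values without hormone were 3.41 and 5.15. The abundant members Zbtb14, Zbtb4, Zbtb38 and Zbtb33 had differences of -0.01, -0.08, -0.09 and 0.09 in EA cells.

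Known regulators of Bcl6 transcription were examined in the same way. Of 20 measured members (21 listed), 13 had a mean of at least 4, and 0 passed in EA or YF cells in limma. These counts are near the 0.135% and 0.18% of all probe sets and are no result about the regulators. Before adjustment (p under 0.05), 1 was higher and 0 lower in EA, and 2 were higher and 4 lower in YF cells. Of all 45037 probe sets, 2529 and 5114 were under 0.05 there, in either direction. Foxo1 and Foxo3, forkhead factors that can activate Bcl6, had differences of 0.03 and 0.02 in EA and 0.23 and -0.13 in YF cells. Ghr, the growth hormone receptor, had differences of -0.01 in both mutants. Stat3, which can also bind Bcl6, had differences of 0.24 (SE 0.13, adjusted p = 0.87) in EA and 0.23 (SE 0.13, adjusted p = 0.54) in YF cells. Over the whole list the differences in EA cells ran from -0.52 (Stat5a) to 0.79 (Bach2), and neither passed.

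The comparison of EA with YF cells without hormone sets the small Bcl6 difference of 0.20 beside these lists. Of all probe sets, 4847 (10.8%) passed, and 2488 to 2707 without 1 of the 4 unstimulated arrays. Among the regulators 6 of 20 passed, 2 higher in EA (Foxo4 and the cytokine receptor subunit Il6st) and 4 lower (Stat5a, Bach2, Ghr and Foxo1). Stat5a had values of 4.83 and 5.36 in EA and 7.95 and 7.82 in YF cells, a difference of -2.79 (SE 0.32, adjusted p = 0.0071); whether the probe set covers the introduced construct is not known here. Bach2, a B cell repressor that cooperates with BCL6, had a difference of -1.81 (SE 0.12, adjusted p = 0.0013). The count was 2 without EA replicate 1, EA replicate 2 or YF replicate 2, and 4 without YF replicate 1.

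Against 10.8% of all probe sets, 2 of 24 cofactors (8.33%) passed without hormone, both higher in EA cells. These were Pcgf1, the Polycomb subunit of the BCOR complex (1.78, SE 0.17, adjusted p = 0.0041), and Hdac4 (0.52, SE 0.07, adjusted p = 0.0093). The count was 1 without YF replicate 1 and 4 without either YF array with hormone. Of the BTB zinc finger genes 5 of 45 (11.1%) passed. The cofactor and family counts are near the share of all probe sets and are no result about these lists. That share takes in the 24773 probe sets of the low group, whereas all 24 cofactors had means of at least 4. It is therefore not matched to the level of the list members. When only probe sets with a mean of at least 4 were fitted, 5296 passed, with 3 cofactors, 6 family genes and 4 regulators among them. Gzf1 (1.60, SE 0.07, adjusted p = 0.00058), Zbtb42 (1.57), Zbtb7a (0.70) and Zbtb44 (0.56) were higher in EA, and Zbtb41 (-0.66) was lower. The count was 3 without YF replicate 2. Zbtb16 had a difference of 1.97 (SE 0.55, adjusted p = 0.10) and did not pass.

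Among the genes described as repressed by BCL6, 3 of 25 (12%) passed without hormone. This is near the 10.8% of all probe sets, a share that includes the low group, so the count is no result about the list. Runx3, a lineage transcription factor, was lower in EA cells, with values of 5.78 and 5.79 against 8.39 and 8.003 (-2.41, SE 0.17, adjusted p = 0.0017). Id2, an inhibitor of basic helix-loop-helix factors, was lower too, with 8.65 and 8.72 against 10.71 and 10.83 (-2.08, SE 0.21, adjusted p = 0.0049). Cish was higher (1.04, SE 0.21, adjusted p = 0.040), with its YF side in the low group. Among the fits that left out 1 array, the Cish call held only without an array of YF with hormone. Over all 15 alternative fits it held in 8, and the difference was 1.02 to 1.06. Socs2 had a difference of -0.21 (SE 0.34, adjusted p = 0.90).

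**Figure D3:**
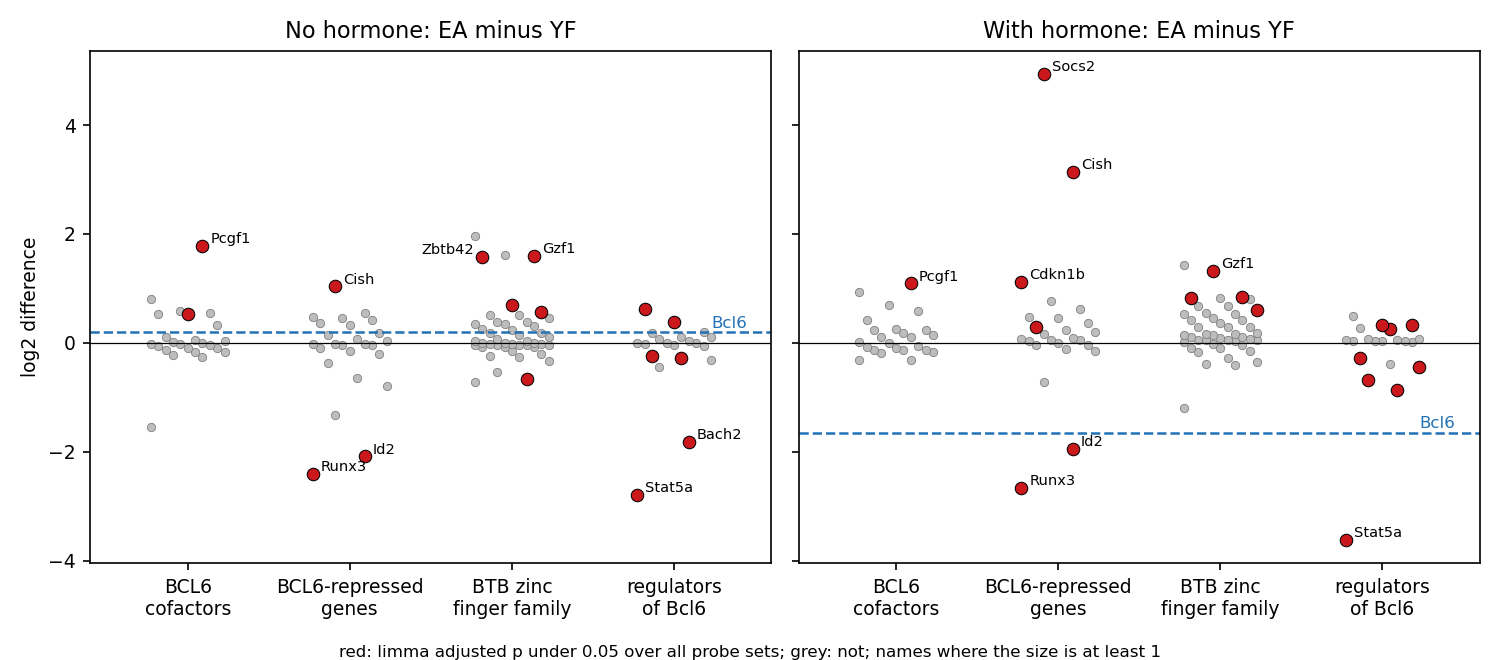
Log2 difference of EA minus YF (vertical axis) for each measured member of the 4 lists, without hormone (left) and with hormone (right); red points passed limma's adjusted p under 0.05 and the dashed line is Bcl6. Bcl6 lies at 0.20 on the left and at -1.65 on the right, while Runx3, Id2 and Stat5a lie below -1.9 on both sides.

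After hormone, the Bcl6 difference of EA minus YF was -1.65, while Socs2 and Cish were higher. Of all probe sets, 4579 (10.2%) passed, and 2372 without EA with hormone replicate 2. Of the 25 repressed genes 6 passed: Socs2 (4.94, SE 0.34, adjusted p = 0.0017), Cish (3.14, SE 0.21, adjusted p = 0.0016, with its YF side in the low group), the cell cycle inhibitor gene Cdkn1b (1.12, SE 0.14, adjusted p = 0.0089) and Notch2 (0.30, SE 0.06, adjusted p = 0.048) were higher in EA, and Runx3 (-2.65) and Id2 (-1.94) were lower. The list's median was 0.08, against 0.06 over all probe sets. The Notch2 call was lost without each array in turn except EA with hormone replicate 1, at an adjusted p of 0.0916 to 0.146.

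In the other lists, against 10.2% of all probe sets, 1 of 24 cofactors (4.17%) passed after hormone (Pcgf1, 1.10 higher in EA). Of the family members 4 of 45 (8.89%) passed, all higher (Gzf1, Zbtb44, Zbtb42 and Patz1, at 0.60 to 1.33). These counts do not exceed the share of all probe sets and are no result about the cofactors or the family. Here too the share takes in the low group and is not matched to the level of the list members. When only probe sets with a mean of at least 4 were fitted, 5140 passed, with 1 cofactor and 8 family genes among them. Of the regulators 8 of 20 (40%) passed, and 6 in that narrower fit. The regulators were Foxo3, Ctcf and Il6st, higher in EA by 0.25 to 0.33, and Stat5a, Ifngr1, Bach2, Foxo1 and Ghr, lower with differences of -3.62 to -0.27. The regulators numbered 3 without EA with hormone replicate 2 and 4 without either EA array, EA with hormone replicate 1 or YF with hormone replicate 2. The cofactors numbered 0 without EA with hormone replicate 1, 2 and 3 without YF with hormone replicates 1 and 2, and the family members 2 without either EA array.

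Some markers of other cell types also had different levels in EA and YF cells. The log2 group means of the 6 macrophage markers summed to 31.6 and 32.1 in EA against 27.5 and 28.8 in YF cells, without and with hormone. Such a sum of log2 values is not a summed amount of RNA. Cd68, Csf1r and Cd14 had means of at least 4, while Adgre1, Ptprc and Itgam lay in the low group. Most of the gap between the sums came from Cd68 (11.24 against 7.66 without hormone), while Csf1r lay the other way (8.12 against 8.40 without and 8.49 against 8.97 with hormone). The log2 group means of the 5 epithelial markers summed to 19.99 and 19.5 in EA against 13.6 and 14.7 in YF cells. That gap was carried by Krt19 (10.12 against 4.19 without hormone), while Cdh1, Epcam, Krt8 and Krt18 lay in the low group. Their part in the differences between the mutants was not tested.

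Finally, the genes whose pattern over the 8 arrays was most like that of Bcl6 were listed. Likeness was the root mean square difference between log2 values after each probe set was centred on its own mean, over 18262 probe sets with 1 symbol and a mean of at least 4. For scale, the Bcl6 values deviated from their own mean by 0.741 in the same measure. The list was selected on these values, so it is a description, no p is given, and nothing on shared function or control is drawn from it.

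The nearest were Stc1, a secreted glycoprotein hormone (0.251), Ptx3, a pentraxin of innate defence (0.260), Dkk2, a Wnt antagonist (0.318), Enho, which encodes adropin (0.323), Hbegf, an EGF receptor ligand (0.364), Tiparp, an ADP-ribosyltransferase (0.364), Urm1, a ubiquitin-like modifier (0.366), and Plb1, a phospholipase (0.367). Their hormone differences were -1.75 to -0.86 in EA cells and -0.36 to 0.55 in YF cells. Stc1 had values of 4.58 and 4.87 in EA without hormone and 2.68 and 3.26 with it, in the low group, and of 4.64 to 5.18 in YF cells. Ptx3 had 5.22 and 4.75 without hormone and 3.31 on both arrays with it, also in the low group, so the size of neither difference has a known scale. Dkk2 had 5.90 and 5.68 without and 4.498 and 4.62 with hormone in EA cells. The EA arrays with hormone were the lowest of the 8 for each of these genes.

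Other probe sets of the same genes did not all share the pattern. A second Hbegf probe set with a higher mean gave -0.90 in EA and 0.01 in YF cells, and 2 further Tiparp probe sets gave -0.55 and -0.66 in EA. The brighter Ptx3 probe set gave 0.22 and 0.19, and the 3 brighter Urm1 probe sets gave 0.01 to 0.08 in EA cells. With Pearson correlation as the measure, 3 of the 8 genes were shared (Stc1, Hbegf and Tiparp).

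The mirror image of Bcl6 was nearest in Cdk6, a G1 kinase (0.217), Serpinb1a, a protease inhibitor (0.232), Ch25h, cholesterol 25-hydroxylase (0.308), and Ccl9, a chemokine (0.330). Cdk6 had values of 6.32 and 6.42 in EA without hormone, 7.79 and 7.56 with it, and 6.33 to 6.57 in YF cells. Its hormone difference was 1.31 in EA and -0.16 in YF cells, and a brighter Cdk6 probe set gave 1.27 and -0.29. A second Serpinb1a probe set gave 0.43 in EA cells. For all 4 genes the EA arrays with hormone were the highest of the 8.

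**Figure D4:**
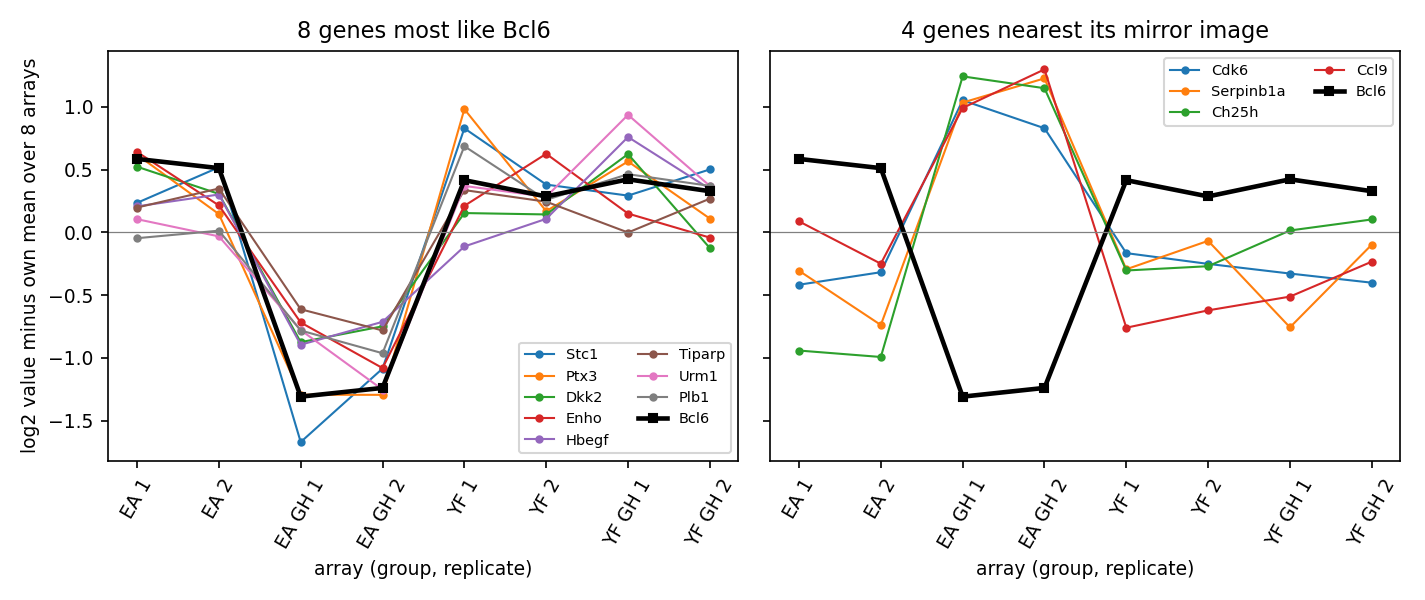
Log2 value minus the probe set's own mean over 8 arrays (vertical axis) for each array (horizontal axis), for Bcl6 (black) with the 8 genes most like it (left) and the 4 nearest its mirror image (right). The black line lies lowest at the EA arrays with hormone, as do the coloured lines on the left; on the right Cdk6, Serpinb1a, Ch25h and Ccl9 peak there.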

How the data were processed

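Biotin-labelled cRNA from 8 samples in 4 groups of 2 was measured on Affymetrix arrays, per the labels' protocols. The authors deposited log2 expression values per probe set. GCOS and RMA are named in the submitters' processing notes, with settings not given in the sources used here, and no further normalization was applied. After 64 control probe sets were left out, 45037 were tested, of which 34945 had 1 gene symbol. A gene was represented by its 1-symbol probe set with the highest mean. List entries without such a probe set (9 of 123) are not analysed here.

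Differences were fitted with limma 3.58.1 in R 4.3.3 (lmFit and eBayes, two-sided) as 4 group means over 8 arrays, with 4 residual and 1.26 prior degrees of freedom, and p-values were Benjamini-Hochberg adjusted over all 45037 probe sets. SE is the moderated standard error. The number of arrays limits the precision, and where the duplicates share a culture the p-values measure technical spread. The code was tested on simulated data.

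Bcl6, the 4 gene lists and the tests were chosen with earlier results of these data known. The text names the Bcl6 probe sets, called list members (up to 6 by size) and the brightest 4 where fewer were called. It also names the 8 most alike and 4 mirror genes, Socs2, Cish and Bcl6b. For EA against YF with hormone all 8 called regulators were named, beyond the bound of 6. Bcor, Hdac9, Prdm1, Stat3 and Zbtb16 were named after their values were seen. Alternatives were quantile normalization, centring, a filter on low means, a replicate block, trended and robust eBayes, fits of the compared groups alone, other probe sets and leaving out each array.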

Additional observations from a re-analysis of the deposited data

Results flagged for a closer look

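The hormone response of Socs2 on its second brightest probe set differed between EA and YF cells by 5.11 on the log2 scale (SE 0.23, limma adjusted p = 0.025 for the difference itself), from a level in the low group without hormone. The call was not stable. For this difference 0 probe sets passed with the replicate block or with the filter on low means, and 0 passed higher with the block crossed.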

How the results depend on the processing

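The Bcl6 differences on the brighter probe set moved by less than 1 SD of the replicates under every alternative that kept that probe set. Their precision was less stable. For EA minus YF without hormone, at 0.197, the SE was 0.065 in the main fit. It was 0.103 with the filter on low means and 0.101 with trended and robust eBayes. Leaving out single arrays gave -1.86 to -1.78 for hormone in EA, -0.04 to 0.09 in YF, -1.91 to -1.78 for the difference of the responses, 0.13 to 0.26 for EA minus YF without hormone and -1.70 to -1.60 with it. The other Bcl6 probe set gave -0.51, 0.66, -1.17, 0.43 and -0.74. The cause was not tested for any change below, except that fits of the compared groups alone have fewer arrays.

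Replicate numbers are not said to mark a shared culture. Differences between replicates 1 and 2 correlated between groups at -0.38 to 0.432 and at -0.271 between EA with and without hormone, so the numbers were not taken to pair the arrays. A replicate block left the Bcl6 differences at -1.82, 0.02, -1.85, 0.20 and -1.65. It gave 2 repressed genes for hormone in EA and 0 cofactors in YF. With the EA numbers crossed, chosen after seeing the data, the block gave 2 repressed genes for hormone in EA, and for EA minus YF without hormone 4 cofactors, 6 repressed and 9 family genes, and 10 family genes with hormone.

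Repressed genes called for hormone in EA numbered 2 after quantile normalization, 1 with the EA arrays alone and 1 to 3 without single arrays. In YF they numbered 0 with the YF arrays alone and 0 to 2 without single arrays, and in the difference of the responses 1 with trended and robust eBayes, 1 by any probe set and 0 to 1 without single arrays. For EA minus YF without hormone they numbered 5 with the filter on low means, 6 with trended and robust eBayes, 7 by any probe set and 2 to 4 without single arrays; with hormone, 5 to 6 without single arrays. Cofactors in YF numbered 0 after centring, with the filter, with trended and robust eBayes or with the YF arrays alone, and 0 to 1 without single arrays. For EA minus YF they numbered 4 by any probe set and 1 to 4 without single arrays without hormone, and with hormone 0 in the compared groups alone, 3 by any probe set and 0 to 3 without single arrays. Family genes numbered 3 to 7 without single arrays without hormone; with hormone they numbered 2 after centring, 8 with the filter, 7 with trended and robust eBayes, 2 in the compared groups alone, 7 by any probe set and 2 to 4 without single arrays. Regulators numbered 3 in the compared groups alone and 2 to 6 without single arrays without hormone, and 2 and 3 to 6 with hormone. Centring gave 23 higher and 22 lower probe sets for hormone in EA, against 42 and 19, and quantile normalization gave 5 and 3 for the difference of the responses, against 4 and 5. Calls over all probe sets for hormone in EA, in YF and in the difference of the responses numbered 61, 81 and 9. They numbered 106, 187 and 42 with trended and robust eBayes (16 higher and 26 lower in the last), 15, 21 and 0 with the block, 50, 131 and 2 with it crossed, 37, 53 and 8 after quantile normalization and 54, 76 and 0 with the filter, and the compared groups alone gave 4 and 1 for the responses and 2381 for EA minus YF with hormone, against 4579. Without single arrays they ranged from 9 to 80, 8 to 675 and 0 to 201. Without replicate 2 of YF with hormone, the difference had 40 higher and 161 lower, and the YF response 499 and 176. Fits of the compared groups alone for the difference of the responses equal the fit of all arrays.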

Other observations

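The genes that flank Bcl6 on chromosome 16 were examined after the other values had been seen. The 3 nearest measured protein-coding genes on each side in the order of the RefSeq table were Masp1, Rtp4 and Sst, and Lpp, Tprg and Trp63. With hormone in EA cells, Lpp, the immediate neighbour and a focal adhesion protein gene, had a difference of -0.04 (SE 0.04, adjusted p = 0.87) at a level of about 14.3, and Masp1, a complement protease gene, of -0.11 (SE 0.06, adjusted p = 0.87). Trp63, a p53 family factor, had a mean of 6.36 without and 4.90 with hormone in EA cells (-1.46, SE 0.24, adjusted p = 0.22) and lay in the low group in YF cells. Sst and Tprg lay in the low group throughout, and Rtp4 had a difference of -0.25 (SE 0.29, adjusted p = 0.87).

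The 9 promoter windows with 3 or more matches to TTCNNNGAA belonged to 8 genes, of which Bcl6, Stambpl1 and Zfp93 were measured by a 1-symbol probe set. Stambpl1, a deubiquitinase gene, was also among the 8 genes most like Bcl6 by Pearson correlation. Its brighter probe set had values of 10.36 and 10.22 in EA without hormone, 9.74 and 9.62 with hormone, and 10.07 to 10.30 in YF cells. The hormone difference in EA cells was -0.61 (SE 0.09, adjusted p = 0.20) and did not pass, and in YF cells it was -0.10. Zfp93, a zinc finger gene, had a difference of -0.29 in EA cells (SE 0.19, adjusted p = 0.87). These genes were singled out after their values were seen. For the 8 alike and 4 mirror genes by root mean square difference, 0 of the windows searched held a match. Of all windows 7.02% held at least 1, so a count of 0 in so few windows says nothing particular of these genes. Stc1, Enho, Hbegf and Serpinb1a had no window to search. The 1 Cish window, the 250 bases before its listed start site, held 0 matches as well. Sequence elsewhere at Cish was not searched. Whether the motif goes with the hormone response was not tested.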
